A study of Mus musculus with 16 samples.

Results

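Genes of the immature or regenerating muscle programme were followed in inflamed mouse ear skin, 10 in all: the myogenic factors Myod1, Myog, Myf5 and Myf6, the satellite cell factor Pax7, the acetylcholine receptor subunits Chrna1 and Chrng, the receptor kinase Musk, and the developmental myosins Myh3 and Myh8. They were taken by symbol from a deposited table of 45777 genes, and 10 of 10 were found. The animals were wild-type C57BL/6 mice whose ears received 50 µM MC903 (calcipotriol, a vitamin D analogue) in 20 µL of ethanol each day for 10 days, which brings on inflammation resembling atopic dermatitis. In 3 libraries the mice had been injected into the skin every other day with 20 µg of an antibody against the cytokine oncostatin M (anti-OSM). In the other 3 they had received 200 µg of an antibody against the neutrophil surface protein Ly6G (anti-Ly6G) in the peritoneum, 2 days before and 1 and 4 days after MC903. Both groups thus shared strain and MC903, while antibody, injection route and schedule differed together and cannot be told apart. No isotype antibody is named for either group, no age is given, and the 10 libraries of control and MC903-only ears were not analysed here. Which group departed from untreated ears is therefore not known, and "higher" and "lower" below mean anti-OSM relative to anti-Ly6G.

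Mouse ear skin holds thin sheets of skeletal muscle, whose fibres are single cells with many nuclei. Pax7 marks satellite cells, the resident stem cells of muscle. Myf5 and Myod1 commit their progeny to the muscle lineage, Myog drives terminal differentiation and fusion, and Myf6 is the family member most abundant in adult fibres. These 4 factors share a basic helix-loop-helix domain and bind the E-box, a hexamer of the form CANNTG. Chrna1 and Chrng encode subunits of the receptor through which motor nerves excite the fibre, and the gamma subunit belongs to the fetal form that the epsilon subunit (Chrne) replaces after birth. Myog, Chrna1, Chrng and Musk are textbook genes of denervated muscle, where they are re-expressed along the fibre. Myh3 and Myh8 encode the embryonic and perinatal myosin heavy chains, which adult fast fibres largely replace with Myh1, Myh2 and Myh4.

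The 250 bases before the start site are shown for the 4 members that passed the test described below, since 3 of them moved one way and the fourth the other. RefSeq promoters (GRCm38.p6, the assembly that mm10 names) were matched for 8 of the 10 members. Capitals mark each CANNTG, which reads the same on both strands. In Myh8 they also mark a MEF2 site of the form YTAWWWWTAR, searched on both strands. Here Y is C or T, W is A or T, and R is A or G. Such sites are the target of the MEF2 factors that act with the myogenic factors. Near matches were not marked. The Myog window holds ctatatttat, which differs from this form only in its last base.
Myog, chr1:134289754-134290003 (plus strand): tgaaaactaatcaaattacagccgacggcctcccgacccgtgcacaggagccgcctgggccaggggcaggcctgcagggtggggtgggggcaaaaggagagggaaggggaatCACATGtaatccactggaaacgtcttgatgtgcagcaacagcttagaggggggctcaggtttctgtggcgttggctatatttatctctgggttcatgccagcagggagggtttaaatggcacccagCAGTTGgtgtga
Chrna1, chr2:73580339-73580588 (minus strand): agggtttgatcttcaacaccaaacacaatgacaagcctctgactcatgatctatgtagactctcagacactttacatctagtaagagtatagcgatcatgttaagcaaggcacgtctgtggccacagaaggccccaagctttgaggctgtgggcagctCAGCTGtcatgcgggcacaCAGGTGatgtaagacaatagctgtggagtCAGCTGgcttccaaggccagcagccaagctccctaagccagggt
Chrng, chr1:87205561-87205810 (plus strand): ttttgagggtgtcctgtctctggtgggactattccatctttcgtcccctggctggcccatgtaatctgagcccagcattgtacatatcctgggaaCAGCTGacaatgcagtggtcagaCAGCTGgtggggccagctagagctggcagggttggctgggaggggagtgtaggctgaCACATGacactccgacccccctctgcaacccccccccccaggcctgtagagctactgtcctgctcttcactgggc
Myh8, chr11:67276874-67277123 (plus strand): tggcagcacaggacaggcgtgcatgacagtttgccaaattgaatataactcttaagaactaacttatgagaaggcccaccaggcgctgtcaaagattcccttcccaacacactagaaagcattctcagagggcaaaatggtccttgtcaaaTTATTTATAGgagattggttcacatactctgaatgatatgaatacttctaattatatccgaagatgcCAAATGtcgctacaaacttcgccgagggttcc
Both receptor subunit genes among the members held 3 E-boxes. Chrna1 had CAGCTG at 92 and at 44 bases before the start site and CAGGTG between them, at 73. Chrng had CAGCTG at 155 and at 132 bases and CACATG at 75. At least 3 E-boxes were found in 12.2% of 32851 promoters of the same length, at least 1 in 66.2%, and at least 2 copies of CAGCTG, as in both genes, in 1.26%. The Myog window held 2, CACATG at 138 bases and CAGTTG at 12. The Myh8 window held 1, CAAATG at 32 bases, and the MEF2 site, which is present in 2.92% of promoters. Musk held 3 E-boxes, Myh3 held 1, and none was found in the windows of Myf5 and Pax7. The beta subunit gene Chrnb1, outside the members, also held 3 E-boxes, with CAGGTG at 29 bases and 0 copies of CAGCTG. Chrne held 1, CAGCTG at 138 bases. Neither Chrnb1 nor Chrne passed the test described below, so 3 E-boxes or a CAGCTG were not particular to the subunit genes that passed. The windows of Myf5 (107486135 to 107486384) and Pax7 (139832969 to 139833218) lie inside the annotated gene spans. On the minus strand those spans begin further upstream, at 107486927 and 139833530. The bases before these outermost ends were not searched. The windows of Musk, Myh3 and Chrne lie in part inside their RefSeq gene spans. In a second annotation, GENCODE, the Chrng span begins at 87204657, so its whole window and its 3 E-boxes lie inside that span. The GENCODE span of Myog begins at 134289989, so its CAGTTG at 12 bases lies inside that span. A match in a window is a description of its letters and no evidence of binding.

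Some members are close neighbours of related genes. Myf5 and Myf6 lie on the minus strand of chromosome 10 (107482908 to 107486927 and 107492848 to 107494723) with 5920 bases between them. Chrng (chromosome 1, 87205811 to 87211835) lies 5740 bases from Chrnd, the delta subunit gene, on the same strand. Myh3 (chromosome 11, 67078273 to 67102291) and Myh8 (67277124 to 67308634) flank the adult genes Myh2, Myh1 and Myh4. These myosin genes are similar in sequence, and no source used here says how reads common to several were assigned, so their split is uncertain. Myog (chromosome 1, 134290004 to 134292548), Myod1 (chromosome 7, 46376474 to 46379092) and Chrna1 (chromosome 2, 73563281 to 73580338) overlapped no other annotated gene.

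Libraries held 52163179 to 64122588 read counts, so that the 3 counts taken as a detection floor equal 0.0466 to 0.0565 CPM (reads scaled to equal library size, per 1e+06). The 6 markers chosen for adult skeletal muscle were all detected, with a summed level of 2704 to 3304 TPM (a level per transcript length) in anti-OSM libraries, against 3992 to 4623 in anti-Ly6G libraries. The keratinocyte markers summed to 20424 to 24162 and 24898 to 31537 TPM. The labels do not say that each library is another mouse, and the p-values reflect the spread over libraries, which may be technical.

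Of the 10 members, 3 were higher with anti-OSM (Myog, Chrng and Chrna1), 1 was lower (Myh8) and 6 did not pass the test. The test was edgeR's quasi-likelihood test with Benjamini-Hochberg adjustment over 19915 genes and a threshold of 0.05. Each of the 10 had enough counts to be tested. Over all tested genes 12.1% passed, 5.81% higher and 6.27% lower. The members' median log2 fold change was 0.21, against 0.01 over all tested genes. The same 4 members were those whose groups did not overlap in CPM, a property of 35.0% of all tested genes. Of these 4, only Myog passed without each library in turn. The share of all genes that passed then was 3.49%, 4.79% and 3.45% without anti-OSM replicate 1, 2 and 3, and 5.30%, 6.50% and 14.8% without anti-Ly6G replicate 1, 2 and 3. DESeq2 called 18.4% of the genes it tested and limma-voom 11.6%.

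**Figure D1:**
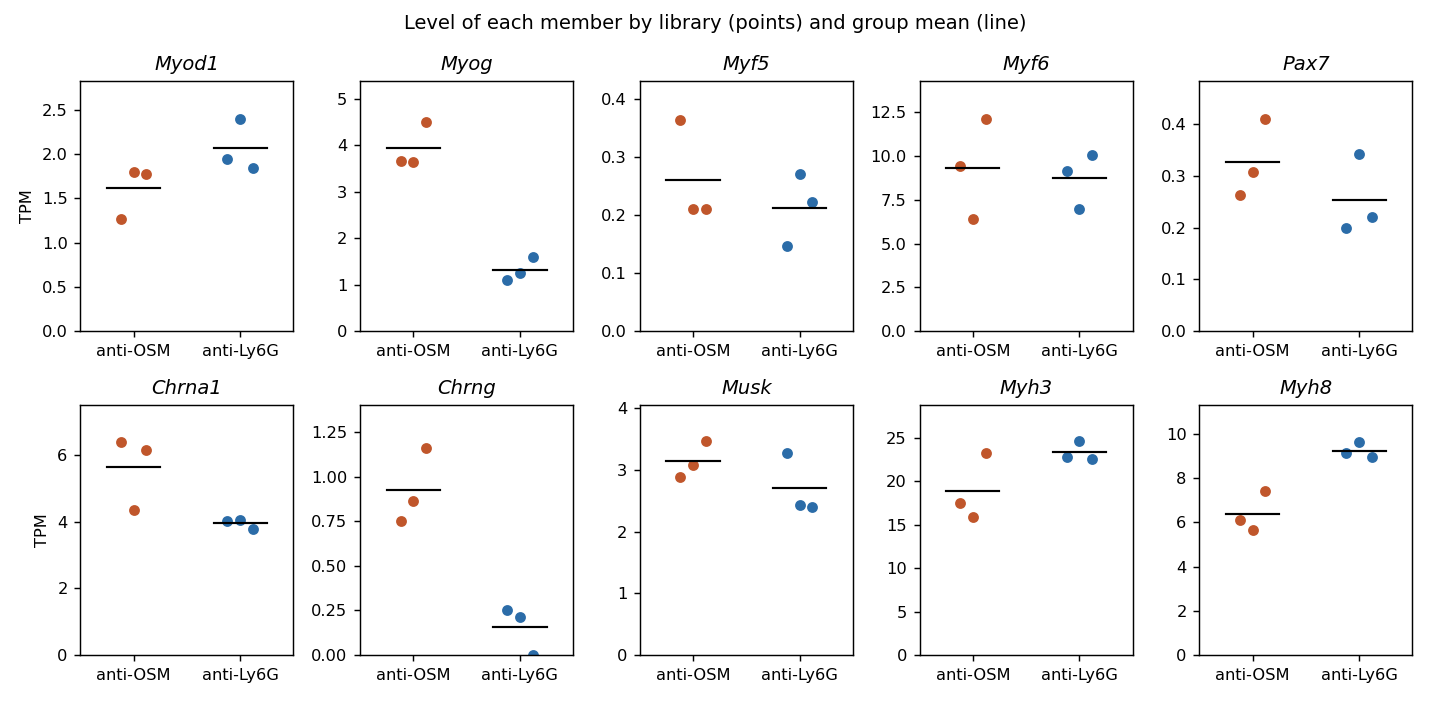
TPM of each of the 10 members, 1 panel a gene with its own axis starting at 0; points are the 3 libraries of each group and lines the group means. Myog, Chrna1 and Chrng with anti-OSM sit above every anti-Ly6G library, Myh8 sits below, Myod1 sits just below (1.80 against 1.85 at the nearest), and Myf5, Myf6, Pax7, Musk and Myh3 overlap.

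Myog was the member with the smallest p. Anti-OSM replicates 1 to 3 held 137, 156 and 188 counts of it, against 50, 51 and 72 in the anti-Ly6G replicates, or 2.58, 2.64 and 3.29 CPM against 0.815, 0.866 and 1.12. The lowest anti-OSM library therefore lay well above the highest anti-Ly6G library. Its mean was 2.84 ± 0.396 CPM against 0.933 ± 0.162 (SD, n = 3). The log2 fold change was 1.60 (SE 0.19, 95% interval 1.16 to 2.05, edgeR adjusted p = 0.00383), or 3.03-fold. Leaving out each library moved the fold change between 1.48 and 1.75 and the edgeR adjusted p between 0.00235 and 0.0203.

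The other myogenic factors did not pass. Myod1 had 60, 97 and 93 counts in anti-OSM libraries against 110, 122 and 105, or 1.47 ± 0.291 against 1.83 ± 0.224 CPM (SD, n = 3). The groups overlapped in CPM and narrowly missed each other in TPM (1.27, 1.80 and 1.78 against 1.95, 2.40 and 1.85). Its log2 fold change was -0.32 (95% interval -0.78 to 0.14, edgeR adjusted p = 0.342), so the factor that acts just before Myog had an estimate on the other side of 0. Myf6, the factor of adult fibres, had 298, 232 and 427 counts against 349, 240 and 384. Its libraries interleaved, and its log2 fold change was 0.11 (95% interval -0.45 to 0.67). Myf5, an early commitment factor, was sparse, with 17 to 20 counts against 13 to 19 and a log2 fold change of 0.30 (95% interval -0.42 to 1.02). Pax7 had 39, 52 and 62 counts in anti-OSM libraries against 36, 56 and 41. The groups overlapped, with a log2 fold change of 0.32 (95% interval -0.29 to 0.93, edgeR adjusted p = 0.478). A change of the size seen in Myog lay outside the intervals of Pax7 and Myf5, while changes within those intervals were not detectable with these libraries.

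Among the receptor genes, Chrng was sparse with anti-Ly6G. Its counts were 37, 48 and 63 in anti-OSM libraries (0.697, 0.812 and 1.10 CPM) against 15, 12 and 0 (0.245, 0.204 and 0 CPM). No library overlapped with the other group. The 0 in anti-Ly6G replicate 3 allows up to 3 counts, or 0.0466 CPM. The log2 fold change was 2.55 (SE 0.68, 95% interval 0.98 to 4.11, edgeR adjusted p = 0.0487). It was 1.94 without that replicate (adjusted p = 0.0101), and the call was lost without any other library (adjusted p 0.0810 to 0.156).

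Chrna1, the subunit that binds acetylcholine, had 700, 544 and 748 counts against 529, 481 and 497. In CPM these were 13.2, 9.20 and 13.1 against 8.62, 8.17 and 7.71. Anti-OSM replicate 2 lay close above the anti-Ly6G libraries and the other 2 further above them. The log2 fold change was 0.53 (SE 0.15, 95% interval 0.20 to 0.87), with an edgeR adjusted p of 0.0496 that stands at the threshold. Dropping anti-OSM replicate 2 kept the call (0.0254), and dropping any other library ended it (0.0925 to 0.172). Musk, the kinase that clusters receptors at the synapse, had 485, 435 and 466 counts against 500, 409 and 495. Its groups overlapped, with a log2 fold change of 0.11 (95% interval -0.16 to 0.38, edgeR adjusted p = 0.573).

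The other receptor subunits, from the list of neuromuscular junction genes, did not all move with Chrna1 and Chrng. Chrnd had 282, 178 and 322 counts in anti-OSM libraries against 165, 152 and 115, for a log2 fold change of 0.98 (SE 0.26, edgeR adjusted p = 0.0470). The Chrnd call held without anti-OSM replicate 2 (0.0278) and was lost without any other library (0.0829 to 0.154). Chrnb1, the beta subunit, had 0.09 (SE 0.14, edgeR adjusted p = 0.727) and Chrne 0.05 (SE 0.20, adjusted p = 0.903). Chrne lies opposite a gene on the other strand, and no source used here says whether reads were counted by strand. Per transcript length, Chrng made up 9.07%, 16.4% and 16.7% of the summed TPM of Chrng and Chrne in anti-OSM libraries against 3.82%, 3.80% and 0%. The means were 14.0% ± 4.31 and 2.54% ± 2.20 (SD, n = 3), and the groups did not overlap (exact two-sided permutation p = 0.10, the smallest that 3 against 3 allows). In counts the 3 anti-OSM shares had exact 95% binomial intervals of 7.78% to 14.7%, 14.6% to 24.8% and 15.4% to 24.3%, which cover counting error only. Those of the anti-Ly6G libraries were 2.61% to 7.52%, 2.56% to 8.40% and 0% to 1.36%.

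**Figure D2:**
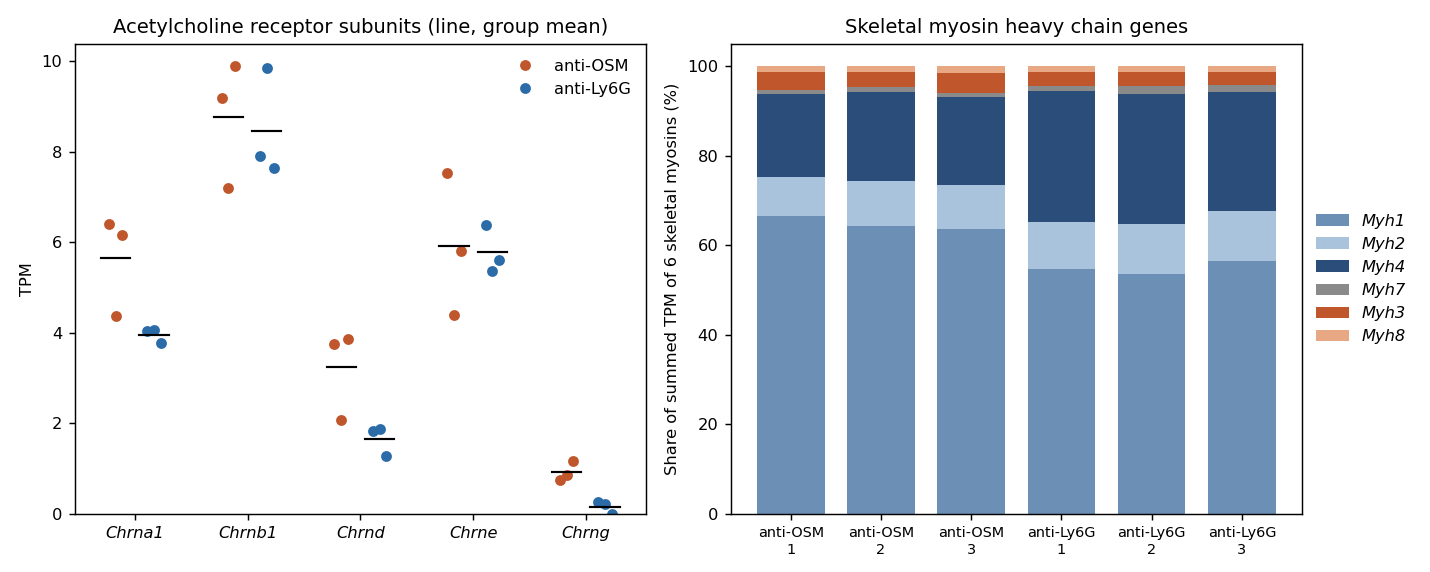
Left, TPM of the 5 muscle acetylcholine receptor subunit genes by library (points) with group means (lines); right, each library's summed TPM of 6 skeletal myosin heavy chain genes divided among them in percent. Chrna1, Chrnd and Chrng sit higher with anti-OSM while Chrnb1 and Chrne overlap, and the Myh4 part of the bars is smaller with anti-OSM.

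The developmental myosins had estimates below 0, as did the adult myosins. Myh8, the perinatal gene, had 946, 1001 and 1280 counts against 1707, 1622 and 1673. In CPM these were 17.8, 16.9 and 22.4 against 27.8, 27.6 and 26.0, with every anti-OSM library below every anti-Ly6G library. The log2 fold change was -0.51 (SE 0.11, 95% interval -0.76 to -0.25, edgeR adjusted p = 0.0250). The call held when the third replicate of either group was dropped and was lost when any other library was (edgeR adjusted p 0.0675 to 0.0900). Myh3, the embryonic gene and the most abundant member, had 2677, 2782 and 3953 counts against 4192, 4082 and 4164. Anti-OSM replicate 3 lay among the anti-Ly6G libraries in CPM (69.3 against 64.6 to 69.4) and the other 2 lay lower (50.4 and 47.1). The log2 fold change was -0.28 (95% interval -0.59 to 0.03, edgeR adjusted p = 0.217). Without that library it was -0.47 (adjusted p = 0.0291).

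Myosin composition differed mainly among the adult genes. Myh4, of the fastest fibres, made up 18.6% to 19.8% of the summed TPM of 6 skeletal myosin genes in anti-OSM libraries against 26.6% to 29.2%. Myh1 made up 63.7% to 66.6% and 53.6% to 56.5%. Myh3 and Myh8 together made up 5.31%, 4.57% and 5.93% in anti-OSM libraries against 4.33%, 4.44% and 4.23%. These shares did not overlap, at 5.27% ± 0.681 against 4.33% ± 0.104 (SD, n = 3; exact two-sided permutation p = 0.10, the smallest possible). The summed share in TPM was higher while both genes' own fold changes were below 0, since Myh4 (-1.18, SE 0.10) and Myh2 (-0.83, SE 0.11) had larger negative changes.

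**Figure D3:**
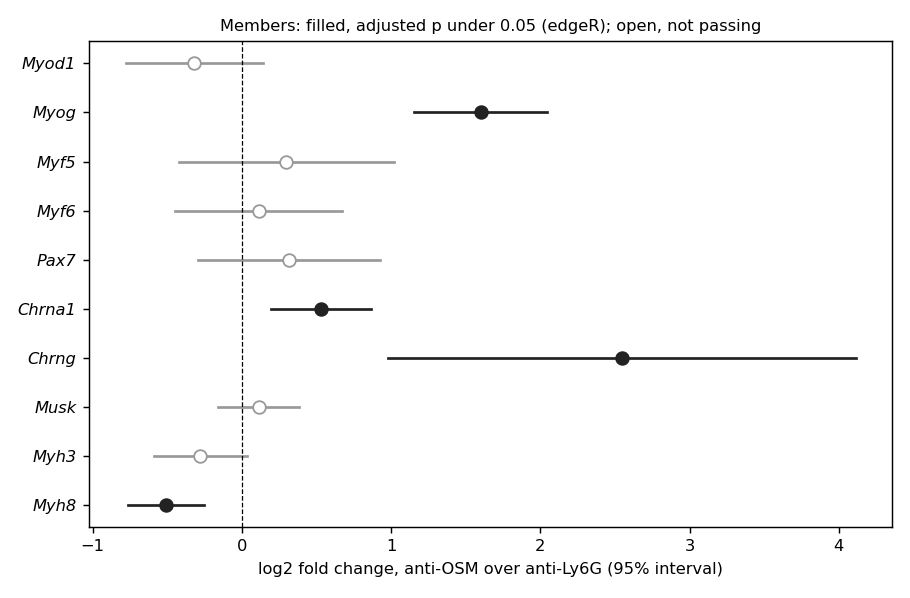
Log2 fold change of each member (anti-OSM over anti-Ly6G, points) with its 95% interval (lines); filled points have an adjusted p under 0.05 and open points do not. Myog (1.60), Chrng (2.55) and Chrna1 (0.53) lie right of 0, Myh8 (-0.51) lies left, and the other intervals cross 0.

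The order of levels, in TPM, also differed around Myog. With anti-OSM it ran Myh3 (18.9 ± 3.86 TPM, SD, n = 3), Myf6 (9.31), Myh8 (6.39), Chrna1 (5.65), Myog (3.94), Musk (3.15), Myod1 (1.62), Chrng (0.926), Pax7 (0.327) and Myf5 (0.262). With anti-Ly6G it ran Myh3 (23.3 ± 1.13), Myh8 (9.24), Myf6 (8.74), Chrna1 (3.96), Musk (2.71), Myod1 (2.06), Myog (1.32), Pax7 (0.254), Myf5 (0.213) and Chrng (0.155). Myog stood above Musk and Myod1 in each anti-OSM library and below both in each anti-Ly6G library. Neighbours in the order whose ranges overlapped were, with anti-OSM, those from Myf6 through Myh8 and Chrna1 to Myog, and Pax7 with Myf5. With anti-Ly6G they were Myh8 with Myf6, and those from Pax7 through Myf5 to Chrng.

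Adult muscle genes were lower as a group, against the direction of Myog, Chrna1 and Chrng. Of 24 contractile and excitation genes of adult fast muscle 19 were lower, 0 higher and 5 did not pass. Over all tested genes 6.27% were lower and 5.81% higher. The list's median log2 fold change was -0.58 against 0.01 over all tested genes. The estimate was below 0 for 24 of 24. They included Mybpc2 (-1.43, SE 0.09), a fast myosin-binding protein, Myh4, the calcium pump Atp2a1 (-0.83, SE 0.08) and the glycogen phosphorylase Pygm (-0.76, SE 0.07). Acta1, skeletal actin, had -0.44 (edgeR adjusted p = 0.0403), Ckm, muscle creatine kinase, -0.82, and Myh1 -0.39 (adjusted p = 0.0205). Myh7, the slow myosin gene, had -1.18 (adjusted p = 0.0118). Myh1 kept its call without 3 of the 6 libraries in turn and Acta1 without 1. Without 1 library the number lower was 11 (anti-OSM replicate 1), 13 (anti-OSM replicate 2), 16 (each anti-Ly6G library) or 18 (anti-OSM replicate 3). Their summed counts were 0.516%, 0.521% and 0.601% of each anti-OSM library and 0.811%, 0.804% and 0.855% of each anti-Ly6G library. In such bulk samples, fewer muscle fibres, less RNA per fibre and a larger share of RNA from other cells cannot be told apart.

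Set against this amount of muscle RNA, Myog had 5.09, 5.07 and 5.44 counts per 10000 adult muscle counts in anti-OSM libraries against 0.996, 1.07 and 1.31. Chrng had 1.37, 1.56 and 1.82 against 0.299, 0.251 and 0, and Chrna1 26.0, 17.7 and 21.7 against 10.5, 10.1 and 9.06. Neither gene overlapped between groups. On this scale 8 of 10 members were higher without overlap, which held for 73.0% of all tested genes (1.19% were lower without overlap), since the denominator itself was lower with anti-OSM. The count therefore says nothing particular to the members. Sizes can be read against the median log2 difference of all tested genes, 0.62: Myog had 2.21, Chrna1 1.12, Pax7 0.93, Myf5 0.91, Musk 0.72, Myf6 0.69, Myh3 0.31, Myod1 0.28 and Myh8 0.09. Chrng had 4.14, a value that rests on the 0.5 added to its count of 0 in anti-Ly6G replicate 3, and 2.48 without that library. Myh8 and Myod1 overlapped between groups on this scale (exact two-sided permutation p = 0.40 and 0.20, adjusted over 10 members 0.40 and 0.222), and the others had the smallest possible p of 0.10 (adjusted 0.125).

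**Figure D4:**
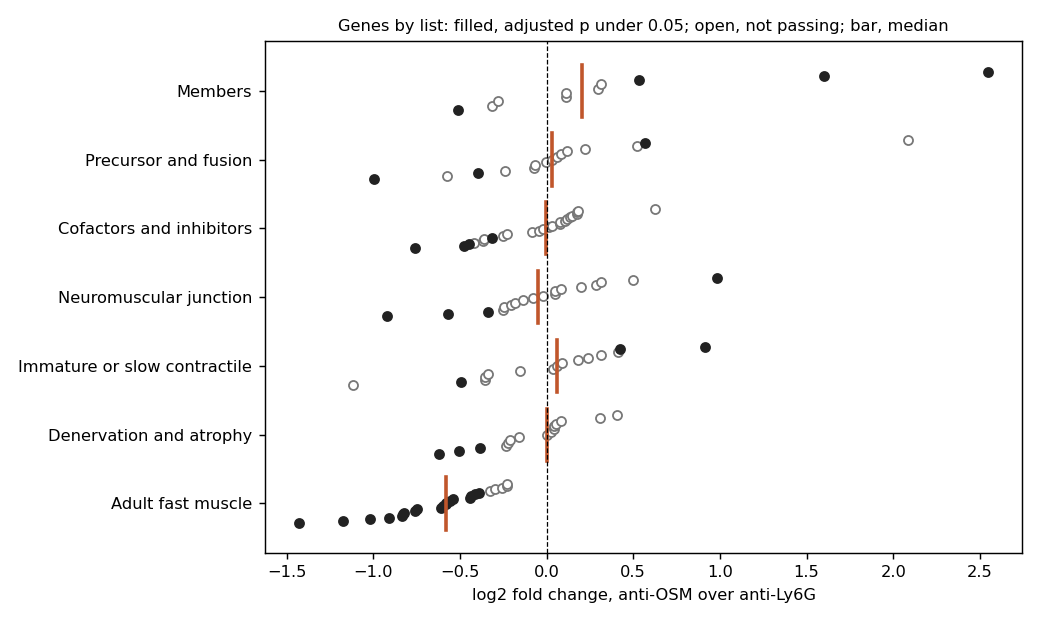
Log2 fold change (anti-OSM over anti-Ly6G) of each tested gene in the members and 6 related lists; filled points have an adjusted p under 0.05, and the bar is each list's median. The adult fast muscle list has its median at -0.58 and the members at 0.21.

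Genes of muscle precursors and fusion had 1 higher, 2 lower and 12 not passing of 15 tested, of 18 in the table. The shares over all tested genes were 5.81% higher and 6.27% lower. Mymk, the membrane activator of myoblast fusion, had 48, 54 and 104 counts in anti-OSM libraries against 15, 32 and 5. Its groups did not overlap in CPM, and its log2 fold change was 2.08 (SE 0.58). Mymk missed the threshold in edgeR (adjusted p = 0.0555) and passed in DESeq2 (0.00388) and limma-voom (0.0483). In edgeR it had an adjusted p of 0.0749 with no filter and 0.0775 with the replicate block. It passed without anti-Ly6G replicate 2 (0.0359) and did not pass without any other library (0.0536 to 0.175). Mymx, its partner in fusion, had 5, 21 and 12 counts against 0, 2 and 0 and was too sparse for the test; it falls outside the rule for named genes and was chosen after its values were seen. Cdh15, the cadherin of satellite cells and myoblasts, had 0.12 (adjusted p = 0.717). The genes that passed were Jam2 (0.57, SE 0.09, edgeR adjusted p = 0.00872), an adhesion molecule also of vessels, the receptor Met (-0.39) and Sox8 (-1.00). Jam2 passed without each library in turn, Met without 4 of 6 and Sox8 without none. Met had means of 33.2 and 43.7 CPM with anti-OSM and anti-Ly6G, against 0.900 and 0.725 for Pax7. Which cells gave the Met reads was not tested.

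Partners and inhibitors of the myogenic factors had 0 higher and 4 lower of 24, beside 5.81% higher and 6.27% lower over all tested genes. The 4 were the growth inhibitor Mstn (-0.76, SE 0.15, edgeR adjusted p = 0.0159), Id3 (-0.48, SE 0.09, adjusted p = 0.0167), Srf (-0.32, SE 0.09, adjusted p = 0.0473) and Id1 (-0.45, SE 0.12, adjusted p = 0.0485). Id1 and Id3 encode proteins that bind the E proteins, the partners of myogenic factors, and they are made by many cell types of skin. Id2 (-0.02, adjusted p = 0.914) and Mef2c (0.08, adjusted p = 0.649) did not pass. Leaving out anti-Ly6G replicate 3 gave 3 lower genes in the list, and leaving out any other library 0 to 2.

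Other junction genes had 1 higher (Chrnd) and 3 lower of 18, beside 5.81% higher and 6.27% lower over all tested genes. Dok7, which activates MuSK, had -0.57 (SE 0.15, edgeR adjusted p = 0.0395), Nrg1 -0.92 (SE 0.20, adjusted p = 0.0242) and Etv5 -0.34 (SE 0.09, adjusted p = 0.0428). The last 2 are also active outside muscle. Rapsn, which anchors receptors, had -0.25 (adjusted p = 0.325) and Lrp4, the agrin receptor, 0.50 (adjusted p = 0.0521). Lrp4 had means of 206 and 146 CPM with anti-OSM and anti-Ly6G, against 8.22 and 7.59 for Musk. Which cells gave the Lrp4 reads was not tested. Without 1 library, 0 to 1 was higher and 0 to 3 were lower.

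Immature or slow contractile genes had 2 higher and 1 lower of 15, beside 5.81% higher and 6.27% lower over all tested genes. Myl4, the embryonic light chain, had 220, 253 and 409 counts against 149, 195 and 164, a log2 fold change of 0.91 (SE 0.24, edgeR adjusted p = 0.0440), a call lost without any 1 of the 6 libraries (0.0625 to 0.138). Vim, which is abundant in fibroblasts and leukocytes, had 0.42 (adjusted p = 0.0145), and Myl2, of slow fibres, -0.49 (adjusted p = 0.0264). Actc1, the actin of immature muscle, had 0.24 (adjusted p = 0.504). Without 1 library, 0 to 2 were higher and 0 to 1 was lower. Mybpc1, a slow myosin-binding protein gene, had -0.36 (adjusted p = 0.0626).

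Genes known to change in denervated or wasting muscle had 0 higher, 3 lower and 12 not passing of 15. The ubiquitin ligase gene Trim63, which rises in wasting muscle, had -0.50 (SE 0.13, edgeR adjusted p = 0.0400), Sln -0.62 (SE 0.15, adjusted p = 0.0340) and Cdkn1a -0.39 (SE 0.10, adjusted p = 0.0363). Fbxo32, its companion in wasting, had -0.21 (adjusted p = 0.0658), Runx1 0.04 (adjusted p = 0.809) and Gadd45a -0.24 (adjusted p = 0.322). Over all tested genes 6.27% were lower and 5.81% higher. The higher share comes to less than 1 gene in a list of 15, so the 0 says nothing particular to the list. Without 1 library 0 to 2 were lower. Of the 17 called genes in these 5 lists, 1 (Jam2) kept its call without each library in turn.

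**Figure D5:**
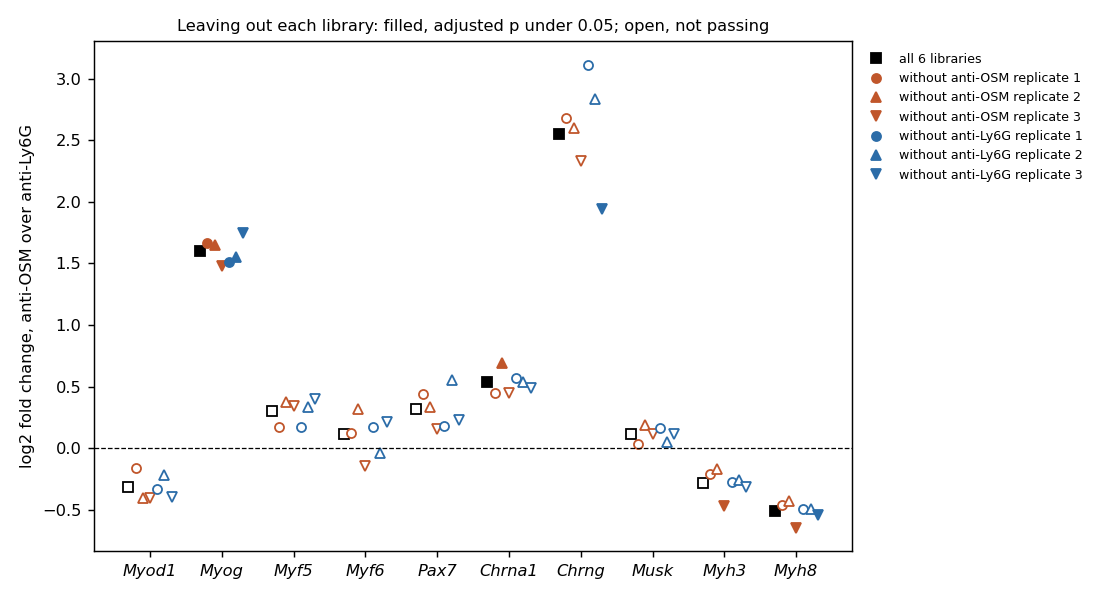
Log2 fold change of each member with all 6 libraries (squares) and with each library left out (other symbols); filled symbols have an edgeR adjusted p under 0.05. Myog is filled throughout at 1.48 to 1.75, and Chrng, Chrna1 and Myh8 are open for most left-out libraries.

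Markers of other cell types gave these values beside the members. Over all tested genes 5.81% were higher and 6.27% lower. Of the markers summed earlier, 2 of 6 for keratinocytes (Krt14 and Dsg3) and 5 of 6 for skeletal muscle were lower. Smooth muscle and pericyte markers summed to 127 to 142 TPM in anti-OSM libraries against 107 to 131 in anti-Ly6G libraries, with Tagln higher of 5. Fibroblast markers summed, in the same order, to 4188 to 4801 and 2734 to 3531 TPM, with 3 of 5 higher. Cartilage markers summed to 103 to 112 and 134 to 155 TPM, with 4 of 6 lower. Cardiomyocyte markers summed to 9.92 to 12.3 and 17.6 to 21.9 TPM, with Myh6 and Myl7 lower and Nppa at 0 in 6 of 6 libraries. The part of these cell types in the members' values was not tested.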

How the data were processed

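Polyadenylated RNA of ear skin was sequenced. The table covers 6 libraries, with 3 deposited measures for each gene. Its read counts as deposited are whole numbers, per the file headers. The FPKM values deposited by the authors were not used. The TPM values deposited by the authors served as levels per length, without a test. The submitters' processing notes name Trimmomatic 0.38, HISAT2 2.1.0, StringTie 2.1.3b and edgeR 3.40.2 without roles. The counting rule and its use of strand are not stated in the sources.

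Counts were fitted with edgeR 4.0.16 in R 4.3.3 (filterByExpr, TMM scaling, robust quasi-likelihood, no covariate) on all genes together. Of 45777 genes 16043 had no count. CPM uses TMM-scaled library sizes. Each standard error is the fold change divided by the root of F. The script was tested on simulated data. No 2 libraries of 1 group agreed within counting noise (chi-square 26.2 or more a gene). Shares and ratios were compared with exact permutation tests (SciPy 1.17.1). The log2 counts per adult muscle counts have 0.5 added to each count.

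The members and gene lists were chosen with earlier results of these data known. Named genes are the 10 members, in each list the 4 lowest in p, receptor, myosin and regulator genes chosen by name, and the 5 genes of at least 1 mean TPM most like the members in log2 CPM. A marker list is not reported here. Alternatives were other scalings and filters, DESeq2 1.42.0, limma-voom (limma 3.58.1), a non-robust fit, a replicate block and leaving out each library.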

Additional observations from a re-analysis of the deposited data

How the results depend on the processing

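The 10 alternatives in scaling, filter, tool and block left Myog called higher and Myh8 called lower. The number of members called higher, 3, held with total count scaling and in DESeq2. It was 2 with RLE scaling, upper quartile scaling and TMM scaling without the listed genes. It was also 2 with a filter of 1 CPM in 3 libraries, a non-robust fit and the replicate block. With no filter on low counts and with limma-voom it was 1. Chrna1, at the threshold, had an edgeR adjusted p of 0.0515 with RLE scaling and 0.0528 with upper quartile scaling. With TMM scaling without the listed genes Chrna1 had 0.0500004, just above the threshold. It had 0.0539 with no filter and 0.0528 with a non-robust fit, and 0.0671 in limma-voom. DESeq2 gave 0.0102 for it, 0.00296 for Chrng and 0.000917 for Myh8, with 18.4% of genes called. Chrng had an adjusted p of 0.0713 with no filter and 0.0710 in limma-voom, where its log2 fold change was 3.57. A filter of 1 CPM in 3 libraries removed Chrng, Pax7 and Myf5.

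Leaving out 1 library gave 0 to 2 members lower and 1 to 2 higher, 12 to 26 genes of the related lists lower (32 with all libraries) and 1 to 4 higher (4), and 420 to 1447 of all genes lower (1249) and 240 to 1545 higher (1157). Myf6 ranged from -0.14 to 0.32, below 0 when anti-OSM replicate 3 (-0.14) or replicate 2 of anti-Ly6G (-0.04) was left out. The causes of these shifts were not tested.

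Replicate numbers are shared between the groups, but deviations of same-numbered libraries correlated at 0.01, 0.04 and 0.12, and anti-OSM replicate 1 correlated more with anti-Ly6G replicate 2 (0.08), so the numbers were not taken as pairs. With the replicate number as a block, 1325 genes were higher and 1275 lower, Myog had an adjusted p of 0.00323 and Chrna1 0.0466, and Chrng did not pass (0.0727). Chrng, Myf5 and Pax7 had counts of at most 63 a library, with standard errors of 0.68, 0.32 and 0.27. The part of counting error in these was not tested.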

Other observations

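Over the 6 libraries, the 5 genes outside the lists whose log2 CPM most resembled the members' mean log2 CPM were Trbc1 (Pearson r = 0.997), a T cell receptor constant region, the gene model Gm7696 (0.996), the sialyltransferase gene St6galnac5 (0.989), the nuclear envelope gene Nrm (0.986) and Dlk1 (0.986), which encodes a Notch ligand relative. They were the closest of 15811 genes with a mean of at least 1 TPM. With 6 libraries and this many genes, high values of r describe these libraries only. The members' log2 fold changes had both signs, so their mean stands for no single member. None of the 5 passed edgeR's test between the groups (adjusted p 0.0757 to 0.133).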
